A study of Mus musculus with 2 samples.

Results

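The trafficking genes described here are 8 rows of an RNA-seq table of 41592 mouse genes, found by matching a fixed list of symbols to the table's Ensembl IDs. They comprise 5 receptors, Ccr7, Cxcr4, Gpr183, S1pr1 and S1pr4, and 3 transcription factors, Klf2, Foxo1 and Foxo3. Each symbol matched 1 row, and all 8 passed the filter of a mean of at least 1 FPKM (fragments counted per length of gene and per size of library).

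Both groups were CD4+ T cells from the spleen and lymph nodes of 6 to 8 week old C57BL/6 mice, and both carried the same genotype, Foxp3 dCNS1-Cre-R26-YFP. In these mice Cre is expressed from Foxp3 regulatory DNA without CNS1, a noncoding enhancer within that locus, and turns on a YFP reporter at Rosa26 that stays on in the cell and its progeny, so YFP records Cre activity at any earlier time rather than present Foxp3. The groups were sorted as Thy1.1-YFP+ and Thy1.1+YFP+, called here Thy1.1-negative and Thy1.1-positive, with 1 library each, so differences between them could not be checked against replicates or tested. The series is about thymus-derived regulatory T (Treg) cells and the precursors of exFoxp3 cells, but Thy1.1+YFP+ stands for both in its design text, so the groups keep their marker names, and the number of animals behind each library is not given in the sources used here.

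Recirculating T cells enter lymph nodes by following the chemokines Ccl19 and Ccl21 through Ccr7, and leave them by following sphingosine 1-phosphate (S1P) through S1pr1. Foxo1 is kept out of the nucleus when antigen receptor or cytokine signals activate Akt. In the nucleus it maintains transcription of Klf2, and Klf2 in turn binds the S1pr1 gene, so these factors tie homing to the resting state. In Treg cells, the same circuit separates cells that circulate through lymphoid organs from activated cells that settle in tissues.

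The sequenced populations carried the transcripts of CD4+ Treg lineage cells. All 7 T cell markers and all 6 Treg markers examined stood above 1 FPKM in both libraries, and Foxp3 was at 158 FPKM in Thy1.1-negative and 237 FPKM in Thy1.1-positive cells. The median difference of log2(FPKM + 1), Thy1.1-negative minus Thy1.1-positive, was 0.29 over the T cell markers and -0.26 over the Treg markers. Il2ra, the interleukin-2 receptor alpha chain, was past 2-fold lower in Thy1.1-negative cells, at 98.8 against 205 FPKM, and the part of this shift in the results below was not tested. The libraries held 18536339 and 18600581 counted reads, respectively. Intervals given below are exact Clopper-Pearson counting intervals at 95% for the FPKM ratio, Thy1.1-negative over Thy1.1-positive unless stated, and cover counting error only.

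The 8 genes did not shift together. Ccr7 and Klf2 were lower in Thy1.1-negative cells, S1pr4 and Gpr183 were higher, and Cxcr4, S1pr1, Foxo1 and Foxo3 differed by less, with ratios between 0.906 and 1.11. None was at least 2-fold lower or higher on the log2(FPKM + 1) scale, where 1.15% of the 12820 genes that passed the filter were 2-fold lower and 1.93% were 2-fold higher. A 1.5-fold rule took in Ccr7 as lower, against 3.85% of all genes, and S1pr4 as higher, against 5.81%. Among protein-coding genes alone these shares were 2.17% and 5.25%, and at 2-fold 0.544% and 1.78%. Of the 8 differences 4 lay below 0, where 44.9% of all genes did, and their median was 0.003 against 0.03 over all genes. Of all genes, 12.1% had a lower difference than Klf2, 5.12% a higher one than S1pr4 and 5.89% a higher one than Gpr183. In bulk RNA, fewer cells that express a gene and less RNA of it per cell cannot be told apart.

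**Figure D1:**
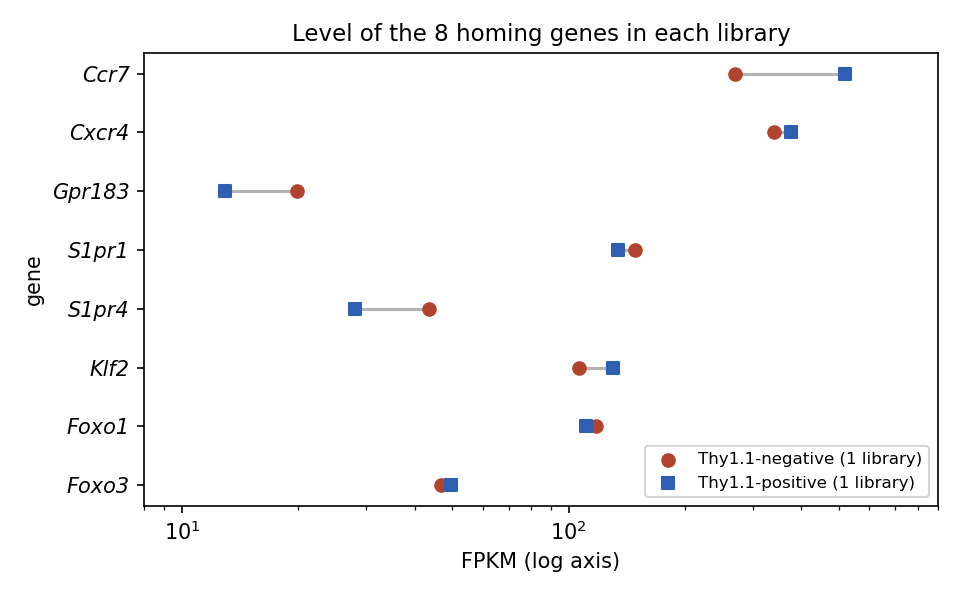
FPKM on a log axis for each of the 8 genes, with 1 point per library and a line joining the pair. The widest gap is that of Ccr7, at 270.2 FPKM in Thy1.1-negative and 519.6 FPKM in Thy1.1-positive cells.

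Ccr7, the receptor for lymph node entry, was the member with the largest difference. It stood at 270.2 FPKM in Thy1.1-negative cells, from 9908 reads, and at 519.6 FPKM in Thy1.1-positive cells, from 19116 reads. Thy1.1-positive cells thus held 1.92 times as much (1.88 to 1.97). Its difference of log2(FPKM + 1) was -0.94, and 1.38% of all 12820 genes had a lower one. Among the 1115 genes with a mean of at least 100 FPKM, a level chosen after the values were seen, 5 had a difference as low as that of Ccr7 or lower, Ccr7 included. Ccr7 was the most abundant of the 8 genes in Thy1.1-positive cells and came second to Cxcr4 in Thy1.1-negative cells.

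Cxcr4, the receptor for Cxcl12 that holds cells in bone marrow and at stromal niches, was close to level. It stood at 339.9 FPKM in Thy1.1-negative and 375 FPKM in Thy1.1-positive cells, a ratio of 0.906 (0.879 to 0.933). Both chemokine receptors were therefore lower in Thy1.1-negative cells as deposited, by unequal amounts, and Cxcr4 turned to higher when both libraries were scaled to the same upper quartile.

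Gpr183, also called EBI2, senses oxysterols and positions lymphocytes at the edges of follicles and T cell zones. It was the least abundant of the 8 genes, at 19.8 FPKM from 541 reads in Thy1.1-negative cells and 12.9 FPKM from 354 reads in Thy1.1-positive cells. The ratio was 1.53 (1.34 to 1.76), with the widest interval among the 8 genes on the log scale.

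S1pr1, the receptor for exit into lymph and blood, stood at 148 FPKM in Thy1.1-negative and 134 FPKM in Thy1.1-positive cells, a ratio of 1.11 (1.07 to 1.14). S1pr4, a lymphocyte receptor for the same lipid, had a larger difference. It stood at 43.7 against 28.01 FPKM, from 1934 and 1244 reads, 1.56-fold higher in Thy1.1-negative cells (1.45 to 1.68). Both S1P receptors were thus higher in Thy1.1-negative cells while Ccr7 was lower there. Another S1P receptor, S1pr2, which opposes migration through G proteins of the G12/13 class, was also higher, at 7.99 against 4.45 FPKM, a ratio of 1.80 (1.53 to 2.12). S1pr3 and S1pr5 were under 1 FPKM in both libraries, with at most 5 reads each in either. Of the summed FPKM of all 5 S1P receptors, S1pr1 made up 74.1% in Thy1.1-negative and 80.4% in Thy1.1-positive cells, and S1pr4 made up 21.8% and 16.8%.

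Among the regulators, Klf2, a Krüppel-like factor of resting T cells, was the one with the largest difference. It stood at 106 FPKM in Thy1.1-negative cells, from 3637 reads, and 130.3 FPKM in Thy1.1-positive cells, from 4478 reads, a ratio of 0.815 (0.780 to 0.852). Foxo1 stood at 118 against 111 FPKM, a ratio of 1.07 (1.04 to 1.09). Foxo3, a second Foxo factor of T cells, stood at 46.7 against 49.7 FPKM, a ratio of 0.940 (0.889 to 0.994) that turned to higher after scaling by the upper quartile. Klf2 and its target S1pr1 therefore lay on opposite sides of level in the deposited values, and Foxo1 lay on the same side as S1pr1. Scaled by the upper quartile, the difference of log2(FPKM + 1) was -0.04 instead of -0.29 for Klf2, 0.35 instead of 0.09 for Foxo1 and 0.40 instead of 0.15 for S1pr1, a shift common to all genes.

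The other Foxo genes differed little. Foxo4 stood at 41.64 FPKM in Thy1.1-negative and 41.65 FPKM in Thy1.1-positive cells, with a ratio interval of 0.929 to 1.08. Foxo6 was listed at 0.0825 and 0.123 FPKM, from 4 and 6 reads. Of the summed FPKM of these 4 genes, Foxo1 made up 57.2% in Thy1.1-negative and 54.7% in Thy1.1-positive cells, and Foxo3 made up 22.6% and 24.6%.

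**Figure D2:**
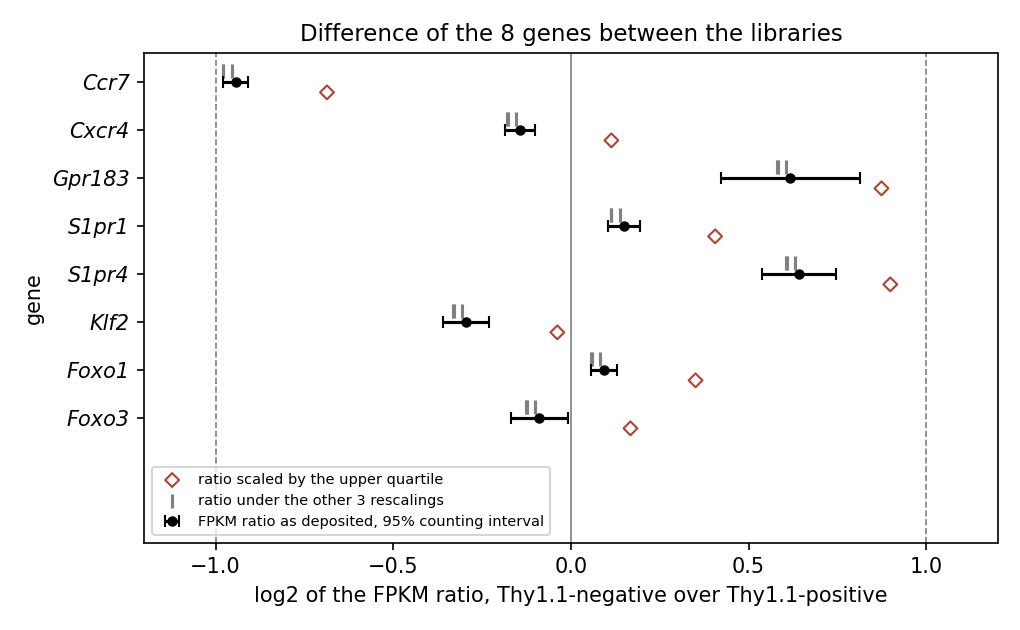
Log2 of the FPKM ratio, Thy1.1-negative over Thy1.1-positive, for each gene, with 95% counting intervals as bars and dashed lines at 2-fold. Short grey lines and open diamonds show the ratio after rescaling: under the upper quartile, which shifts every gene by 0.26, Cxcr4 and Foxo3 cross to above 0, while Ccr7 and Klf2 remain below it.

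**Figure D3:**
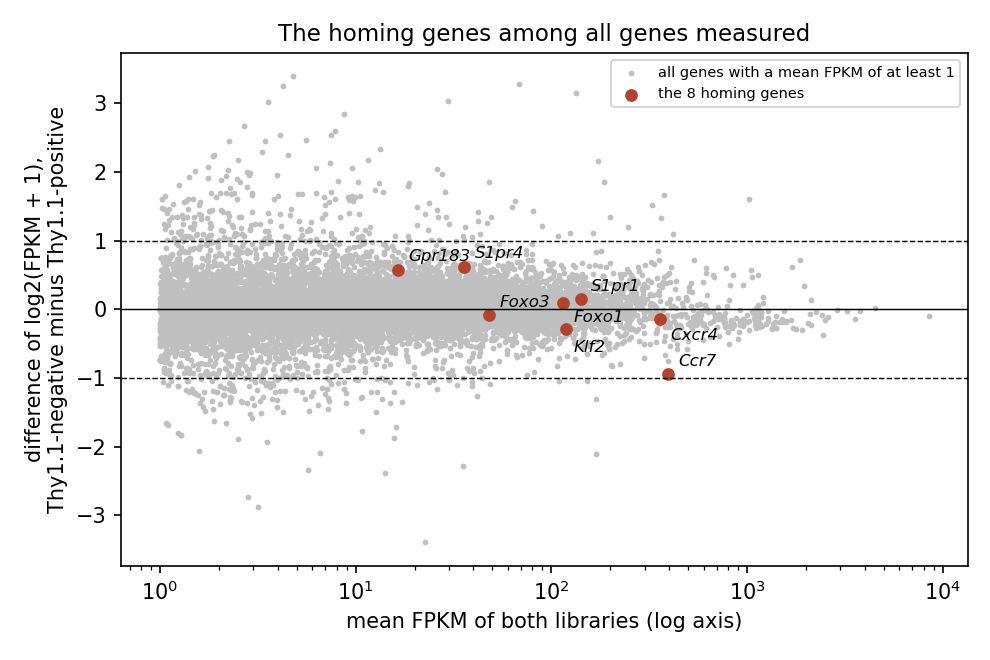
Difference of log2(FPKM + 1), Thy1.1-negative minus Thy1.1-positive, against mean FPKM on a log axis for the 12820 genes that averaged 1 FPKM or more, with dashed lines at 2-fold. The 8 homing genes are labelled and all lie between the dashed lines, with Ccr7 lowest at -0.94 and S1pr4 highest at 0.62.

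The balance between genes within a library does not depend on how libraries are scaled. The FPKM ratio of Ccr7 to S1pr1, entry receptor to exit receptor, was 1.82 in Thy1.1-negative cells and 3.88 in Thy1.1-positive cells. This balance was 2.13-fold higher in Thy1.1-positive cells (2.05 to 2.22, from the read counts on the log scale). That of Ccr7 to S1pr4 was 6.18 and 18.6, 2.999-fold higher in Thy1.1-positive cells (2.78 to 3.23). Against Gpr183 the Ccr7 ratio was 13.6 and 40.2.

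Among the regulators, Klf2 to Foxo1 stood at 0.8995 in Thy1.1-negative cells and 1.18 in Thy1.1-positive cells, so the order of the deposited levels was opposite in the libraries. With Foxo1 taken per base of all its annotated exons, Klf2 stood above it in both, as given below. S1pr1 to Klf2 stood at 1.397 and 1.03, 1.36-fold higher in Thy1.1-negative cells (1.29 to 1.44). Over all 28 pairs of the 8 genes, the counting interval of the change in balance included 1 for 3 pairs, which were Gpr183 with S1pr4, S1pr1 with Foxo1, and Cxcr4 with Foxo3. For Gpr183 with S1pr4 the ratio was 0.454 and 0.462 in the libraries, and for S1pr1 with Foxo1 it was 1.26 and 1.21. These intervals come from reads of 1 library per group and do not hold variation between animals or sorts. The intervals of the single-gene ratios excluded 1 for all 8 genes, so small differences suffice at these read numbers. The shares over all genes and over pairs of other genes were not worked out. Whether either count is particular to these 8 genes is therefore not known.

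**Figure D4:**
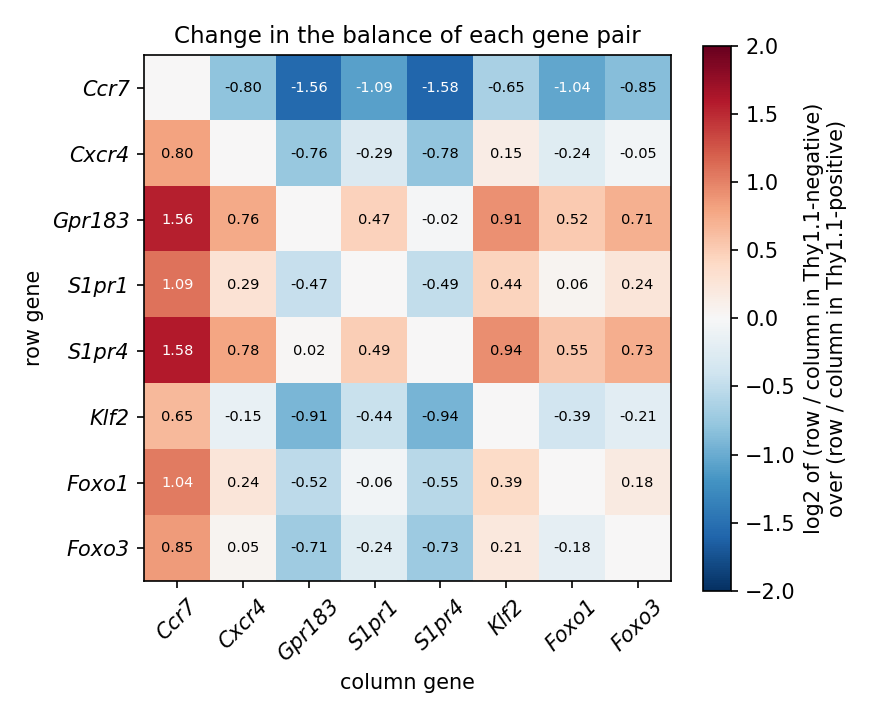
Log2 of the change in balance for each pair, the row gene over the column gene in Thy1.1-negative cells divided by the same in Thy1.1-positive cells. The Ccr7 row is below 0 throughout, down to -1.58 against S1pr4, and the cell for Gpr183 and S1pr4 is near 0.

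Ordered by FPKM, Thy1.1-positive cells ran Ccr7, Cxcr4, S1pr1, Klf2, Foxo1, Foxo3, S1pr4 and Gpr183. Thy1.1-negative cells had the same order except that Cxcr4 stood above Ccr7 and Foxo1 above Klf2. Levels of different genes depend on the length used. The values correspond to a gene length of 2820 bases for Foxo3, the mean of its annotated transcripts, where its exons cover 7571 bases together. On that longer length Foxo3 would stand at 17.4 and 18.5 FPKM, and Cxcr4, with 1354 bases used of 1808, at 255 and 281 FPKM, which puts Cxcr4 below Ccr7 in both libraries. The length behind the Foxo1 values is 5552 bases or a multiple of it, against 8665 bases annotated. On the annotated length, with the reads used here, Foxo1 would stand at 75.7 and 70.9 FPKM, below Klf2 at 106 and 130.3 FPKM in both libraries. Ratios between the libraries do not depend on this length.

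Promoter sequences are shown for the regulator Klf2, for S1pr4 and Gpr183, whose differences were alike, and for Cxcr4, which was near level. They are from RefSeq on build GRCm38.p6, 250 bases upstream of each gene's annotated start, 5′ to 3′ on the gene's strand. The table matched 6 of the 8 genes, and Ccr7 and S1pr1 are named only. Capitals mark the forkhead core GTNAACA, the Krüppel-like factor box CCNCNCCC, the MEF2-type core CTANNNNTA and the NRF1-type core CGCATGCG, searched on both strands with overlapping matches kept. The windows are chr8:72318812-72319061 on the plus strand for Klf2, and on the minus strand chr1:128592300-128592549 for Cxcr4, chr10:81500138-81500387 for S1pr4 and chr14:121965194-121965443 for Gpr183.
Klf2: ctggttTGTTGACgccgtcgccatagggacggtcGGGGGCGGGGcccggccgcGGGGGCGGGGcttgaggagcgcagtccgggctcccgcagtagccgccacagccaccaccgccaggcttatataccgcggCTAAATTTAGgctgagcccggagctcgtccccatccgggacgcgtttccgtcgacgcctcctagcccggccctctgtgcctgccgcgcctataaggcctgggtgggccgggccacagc
Cxcr4: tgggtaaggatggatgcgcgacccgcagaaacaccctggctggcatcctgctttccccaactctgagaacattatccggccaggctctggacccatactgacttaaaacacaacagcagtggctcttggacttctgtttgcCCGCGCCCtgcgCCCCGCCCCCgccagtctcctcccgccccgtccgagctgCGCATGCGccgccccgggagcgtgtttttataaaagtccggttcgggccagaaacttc
S1pr4: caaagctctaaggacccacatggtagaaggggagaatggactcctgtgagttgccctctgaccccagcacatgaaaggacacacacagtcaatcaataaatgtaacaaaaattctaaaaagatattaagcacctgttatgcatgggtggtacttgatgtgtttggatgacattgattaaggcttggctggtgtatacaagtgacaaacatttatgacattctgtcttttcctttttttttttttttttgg
Gpr183: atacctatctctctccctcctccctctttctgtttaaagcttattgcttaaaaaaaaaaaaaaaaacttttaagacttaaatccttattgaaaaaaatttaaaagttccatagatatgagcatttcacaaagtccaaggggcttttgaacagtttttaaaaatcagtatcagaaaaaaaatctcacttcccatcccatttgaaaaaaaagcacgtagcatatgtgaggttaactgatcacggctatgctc

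The Klf2 window held 1 forkhead core, 238 to 244 bases before the start, 4 Krüppel-like factor boxes in 2 overlapping pairs, and 2 MEF2-type cores, which overlap on opposite strands 109 to 118 bases before the start. The Cxcr4 window held 3 Krüppel-like factor boxes, 2 of them overlapping, and 1 NRF1-type core 51 to 58 bases before the start. No match to the 4 motifs lay in the S1pr4 or Gpr183 window. Of 32851 mouse promoter windows of this length, 8.69% held the forkhead core, 45.9% the Krüppel-like factor box, 19.0% the MEF2-type core and 1.55% the NRF1-type core. Matches are descriptions of letters, not of binding.

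Genes described as Foxo targets went both ways. All 16 were measured, that is, averaged at least 1 FPKM, and none was 2-fold higher or lower. Of these, 11 lay below 0 and 5 above, where 44.9% of all genes lay below 0. The median was -0.07 against 0.03 over all genes, or 0.17 against 0.26 when scaled by the upper quartile. Il7r, the interleukin-7 receptor chain, stood at 51.1 against 58.3 FPKM, a ratio of 0.877 (0.818 to 0.940). Irs2, an adaptor of insulin receptor signalling, was the lowest, at 64.2 against 107 FPKM, 1.67-fold higher in Thy1.1-positive cells (1.62 to 1.72). Rbl2, a pocket protein that restrains the cell cycle, was the highest, with a ratio of 1.35 (1.28 to 1.43).

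Genes that control Foxo proteins differed in both directions. Of 25 measured out of 26, 17 lay above 0 and 8 below, none past 2-fold, with a median of 0.03. The share of all genes above 0 was 55.1%, and their median was also 0.03. Sgk1, a kinase that phosphorylates Foxo factors, had the highest difference, at 56.1 against 40.96 FPKM, a ratio of 1.37 (1.26 to 1.49). Phlpp1, a phosphatase that acts on Akt, had the lowest, at 66.4 against 89.2 FPKM, a ratio of 0.745 (0.710 to 0.781). Akt1 itself stood at 141 against 108 FPKM, a ratio of 1.30 (1.22 to 1.38).

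Of 9 measured genes of S1P handling out of 16, 7 lay above 0, against 55.1% of all genes, and 2 below. None was past 2-fold. The median over all genes was 0.03, and that over this list was 0.08. That median was 0.20 over genes with a mean of at least 5 FPKM, and 0.33 against 0.26 over all genes when scaled by the upper quartile. S1pr2 was the highest, and Mfsd2b, an S1P exporter, the lowest, at 1.56 against 2.36 FPKM. Cd69, whose protein binds S1pr1 and takes it off the cell surface, stood at 135 against 109 FPKM, a ratio of 1.24 (1.19 to 1.30). Transcripts of the ligands were scarce. Ccl19, Ccl21a, Ccl21b and Cxcl12 were each under 1 FPKM in both libraries, as was Ch25h, the enzyme that starts synthesis of the Gpr183 ligand. Of that list of 12, 2 genes were measured, with a median of -0.10 as deposited and 0.13 when scaled by the upper quartile: Dpp4, a protease that trims Cxcl12, with a ratio of 0.983 (0.920 to 1.05), and Hsd3b7, which breaks down the Gpr183 ligand, with a ratio of 0.854 (0.633 to 1.15).

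Signalling components downstream of the receptors were mostly higher in Thy1.1-negative cells. Of 28 measured out of 31, 21 lay above 0 and 7 below, none past 2-fold, and the median was 0.17. Over all genes 55.1% lay above 0, and the median was 0.03. Gng2, a G protein gamma subunit, had the highest difference, at 41.8 against 26.3 FPKM, and Rgs16, which shortens G protein signals, the lowest, at 121 against 171 FPKM. Gnai2, the inhibitory alpha subunit used by chemokine receptors, stood at 312 against 234 FPKM, a ratio of 1.34 (1.30 to 1.37). T cell markers outside this pathway were higher too, with a median of 0.29, and their part in the result was not tested.

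Some other chemoattractant receptors had larger differences than the 5 homing receptors. Among 19 of them measured out of 24 listed, 6 were 2-fold higher in Thy1.1-negative cells, 0 were 2-fold lower, and the median was 0.14. Over all genes, 1.93% were 2-fold higher, 1.15% were 2-fold lower and 55.1% lay above 0, with a median of 0.03. One of the 6, Ccr10, named after its values were seen, stood at 2.09 against 0.218 FPKM and passed the filter only through the library where it was high; the other 5 were above 1 FPKM in both. Ccr2, Ccr4 and Cxcr3 had differences of 2.59, 1.83 and 1.71 on the log2(FPKM + 1) scale. Ccr8, a receptor of tissue Treg cells, had the lowest, at -0.73. Cxcr5, which leads cells into B cell follicles, was 2.09-fold higher (1.86 to 2.35), at 25.2 against 12.1 FPKM, a difference of 1.004. That is at the edge of the 2-fold rule, and Cxcr5 fell short of it under 3 of the 4 rescalings, at 0.97 to 0.99, and with 5 added before the log, at 0.82. Cxcr3 was also among the 2 past 2-fold of 5 measured out of 7 genes described as changed in T cells without Klf2, a list with 3 above 0, 2 below and a median of 0.61, where Cdkn1a, a cell cycle inhibitor, had the lowest difference, at 56.9 against 60.6 FPKM. Itgb7, an integrin chain of gut homing in that list, stood at 493 against 322 FPKM.

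Of 10 adhesion genes, 8 lay above 0 and 2 below, with a median of 0.20. Over all genes 55.1% lay above 0, 1.93% were 2-fold higher, and the median was 0.03. The list was drawn up for lymph node entry but also holds integrin chains with other roles, such as Itgb7. Its median is therefore not one of node entry alone. Itgb1, the beta chain of very late antigen integrins, was 2.56-fold higher in Thy1.1-negative cells (2.47 to 2.65), at 286 against 112 FPKM, and none of the others passed 2-fold. Itga6, a laminin receptor chain, had the lowest difference, at 107 against 123 FPKM.

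**Figure D5:**
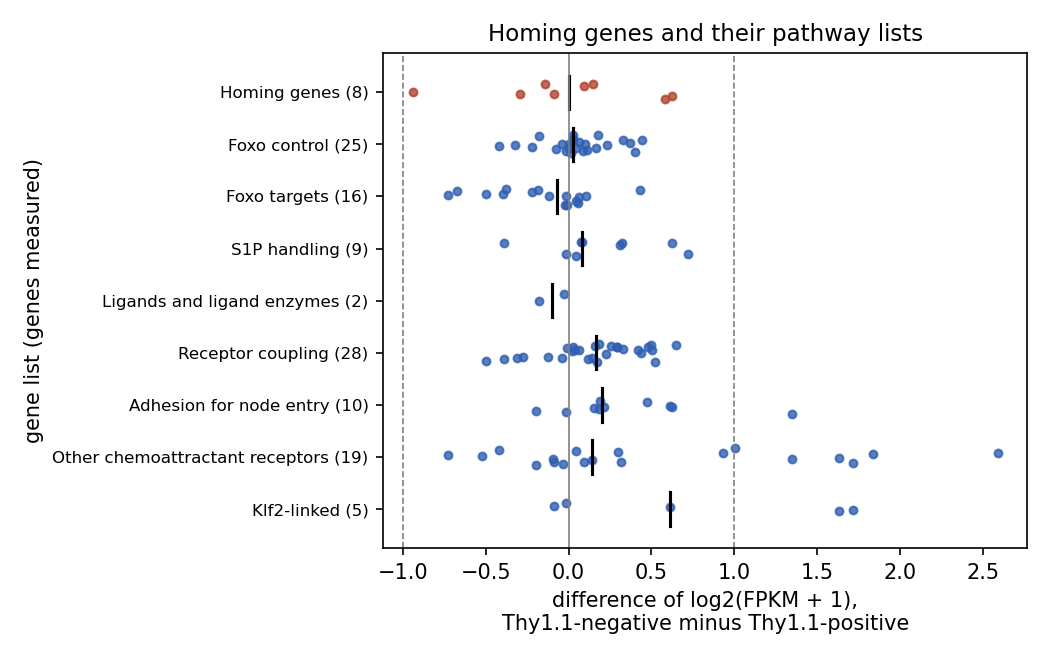
Difference of log2(FPKM + 1), Thy1.1-negative minus Thy1.1-positive, for every measured gene of the 8 homing genes and of 8 pathway lists, with a black line at each median and dashed lines at 2-fold. Some genes belong to more than 1 list. The genes beyond the right dashed line are chemoattractant receptors and Itgb1, and no gene lies beyond the left one.

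Other cell types express some of these genes. B cells express Gpr183, S1pr4, Cxcr4 and Foxo1, and 7 of 10 B cell markers were under 1 FPKM in both libraries. Ms4a1 was at 0.0935 and 0.0745 FPKM in Thy1.1-negative and Thy1.1-positive cells. The summed level of the list was 418 and 266 FPKM, nearly all from Ighm at 409 and 258 FPKM. Cd79b, at 6.45 and 3.97 FPKM, differed in the same direction as Ighm, Gpr183 and S1pr4, and Cd79a, at 1.63 and 2.07 FPKM, in the opposite one. The part of these transcripts in the differences of Gpr183 and S1pr4 was not tested. Endothelial cells express Klf2 and S1pr1, and of 9 endothelial and stromal markers 7 had a mean under 1 FPKM. Cdh5 was at 0.135 and 0.0405 FPKM and Kdr at 0.107 and 0.0945 FPKM, while Pecam1, which T cells also express, held most of the sums of 88.3 and 65.5 FPKM. Myeloid cells express Cxcr4, Klf2 and Foxo3, and 7 of 9 myeloid markers had a mean under 1 FPKM, with sums of 15.03 and 11.3 FPKM, most of them from Cd68 at 8.86 and 9.11 FPKM. Itgam, also a marker of that list, was at 4.17 and 0.272 FPKM.

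By the distance between genes in the plane of both libraries' log2(FPKM + 1) values, over only 2 libraries, the protein-coding gene nearest to Ccr7 was Lrig1, at 295 against 495 FPKM and a distance of 0.14. That nearest to S1pr4 was Cmpk1, to Gpr183 Snx25, to S1pr1 Itga4, to Cxcr4 Rpl37, to Klf2 Rexo1, to Foxo1 Tle3 and to Foxo3 Trrap, all within 0.06.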

How the data were processed

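The values are FPKM as deposited, per Ensembl gene in 1 column for each of the 2 libraries, and the column names were matched to the sort by the letter P (positive) or N (negative) after Thy1. Per the labels' protocols, cells were bead-enriched for CD4, sorted to a purity typically above 97%, and 3 µg of RNA went into each NEBNext Ultra library. Build mm9, TopHat2 2.0.12, Bowtie2 2.2.3 and HTSeq 0.6.1 are named in the submitters' processing notes; their settings and the annotation were not given in the sources used here. Symbols and lengths came from GENCODE M21, which is on another build, so gene positions are not reported; 40254 of 41592 IDs (96.8%) had a symbol.

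FPKM is not a count, so no count model was used. The 23442 genes above 0 in both libraries had FPKM ratios that were ratios of whole numbers times 1.003, within a relative tolerance of 2e-12. Annotated exon lengths then gave the library totals, and reads were the multiple of the smallest whole numbers whose implied length lay within 10% of the mean annotated transcript length, or the smallest whole numbers otherwise. The latter holds for Foxo1, for Foxp3 and for 28 of the 108 list genes measured, among them Il7r, Rbl2, S1pr2, Hsd3b7 and Gnai2, whose reads could be a multiple of those used and whose intervals are then too wide. Some multiples within 10% gave a length that is not a whole number of bases. Among them were Irs2 at 6218.9, Cd69 at 1691.5 and Cxcr5 at 1903.3. Their multiple may be wrong, so their intervals may be too narrow or too wide. Recovery, calls and intervals were checked on simulated data with Python 3.11.15, numpy 2.4.6, pandas 2.3.3 and scipy 1.17.1. Of the 12797 measured genes with an implied length, 54.4% had one within 1 base of the annotated mean transcript length. Recovery of reads where the length used differs from the annotated one was not tested.

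Differences are log2(FPKM + 1), Thy1.1-negative minus Thy1.1-positive, over genes that averaged 1 FPKM or more; adding 1 understates differences at low levels. Reads that share a PCR origin are not independent, so intervals cover counting error only. The members, the lists and the alternatives were chosen with earlier results of these data known. Named were the members, Foxp3 and Il7r and, from each list, genes past 2-fold (up to 4) and the highest and lowest difference; some genes this rule names are not reported here. S1pr2 to S1pr5 and Foxo4 and Foxo6 were added to complete families, and Akt1, Cd69, Gnai2, Ccr10, Cxcr5, Itgb7, Il2ra, Cd79a, Cd79b, the ligands and Ch25h after their values were seen. Alternatives were other pseudocounts, filters, fold rules and 4 rescalings.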

Additional observations from a re-analysis of the deposited data

How the results depend on the processing

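The count of 0 members past 2-fold in either direction held with 0.1 added before the log and under the 4 rescalings, and a 1.5-fold rule gave 1 lower and 1 higher. The other settings could not have changed it. Every member averaged above the 5 FPKM of the stricter filter, adding 5 only narrows differences, and a 4-fold rule is stricter than 2-fold. Over the 8 alternatives, the difference of log2(FPKM + 1) ranged from -0.98 to -0.68 for Ccr7, from -0.33 to -0.04 for Klf2, from 0.56 to 0.87 for S1pr4, from 0.47 to 0.82 for Gpr183, from 0.11 to 0.40 for S1pr1 and from 0.06 to 0.35 for Foxo1, with 1 sign each. Only the 4 rescalings could have changed a sign, since pseudocounts and filters cannot. Scaling by the upper quartile moved the median of all genes from 0.03 to 0.26 and left 2 members below 0 instead of 4, with Cxcr4 at 0.11 and Foxo3 at 0.16. Relative to the median gene, those were -0.14 and -0.09, against -0.17 and -0.12 with the deposited values, and Ccr7 was -0.94 against -0.97. The median of the Foxo target list was 0.17 under that scaling, and that of the ligand list 0.13, and the S1P handling median was 0.20 at a mean FPKM of at least 5. The cause of these differences between scalings is the common shift of every gene that each applies.

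Over all genes, 247 were 2-fold higher and 148 lower. These counts were 402 and 293 when 0.1 was added before the log, 72 and 19 when 5 was added, 107 and 60 at a mean FPKM of at least 5, 398 and 82 under the upper quartile, 745 and 493 by the 1.5-fold rule and 31 and 9 by the 4-fold rule. Among protein-coding genes 58 were lower. Of 108 different genes measured in the pathway lists, 7 were 2-fold higher and 0 lower; a 1.5-fold rule gave 13 and 3, and a 4-fold rule gave 1 higher. The count was 6 without Cxcr5 under 3 rescalings, 5 with 5 added before the log, which also left out Ccr10, and 6 at a mean FPKM of at least 5, without Ccr10. It rose to 8 with 0.1 added before the log, under the upper quartile and without the filter on low values, each time through another chemoattractant receptor. No paired analysis was possible because each group has 1 library. With 1 library per group, depth limits only the counting error, and spread between animals is unknown.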
